A study of Mus musculus with 4 samples.

Results

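Arachidonate 5-lipoxygenase, encoded by Alox5, and 8 other genes that make eicosanoids from arachidonic acid were examined in mouse neural stem/progenitor cells (NSPCs) cultured with or without PJ34, an inhibitor of poly(ADP-ribose) polymerases. The members were taken by gene name, as all non-control probes named Alox5, Alox5ap, Alox12, Alox15, Alox12b, Lta4h, Ltc4s, Ptgs1 or Ptgs2, which gave 11 of the 55681 probes on the array. Alox5 was selected on its measured ratio of PJ34 over control in wild-type cells, so the members' values in that comparison and in its difference from Trp53-/- are described and no test of them is given; calls there are counted as a description. Of the 9 genes, 5 (Alox5, Alox5ap, Alox12b, Lta4h and Ltc4s) gave a signal well above background in 1 channel on both arrays of a genotype and entered the fit of 19628 genes. Alox5 entered it only through the wild-type arrays, so its Trp53-/- and untreated values are likewise described and not tested.

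The paper describes NSPCs from Slc:ICR embryos at embryonic day 13.5, grown in neurosphere medium with EGF and FGF-basic. Wild-type and Trp53-/- cells were compared. The mutant allele came from heterozygous Trp53 mice of a repository, whose strain the paper does not give. The Trp53-/- cells carry the allele in control and PJ34 cultures alike. Whether the genotypes share a strain is not known here, so a strain difference cannot be told apart from genotype. On each of the 4 arrays, 2 per genotype, RNA of cells given 20 µM PJ34 was labelled with Cy5 and RNA of untreated cells of the same genotype with Cy3, with no dye swap; the duration of treatment before RNA extraction is not given in the sources used here. RNA was prepared independently for each array. Both wild-type arrays were scanned before both Trp53-/- arrays, each on its own slide, so that genotype and scan period cannot be told apart.

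The arrays detected between 21503 and 24536 probes above background in the control channel and between 26075 and 27154 in the PJ34 channel. The 9 NSPC markers listed (among them Nes, Sox2 and Pax6) were well above background in every channel. Trp53 itself stayed well above background in the Trp53-/- arrays, with control levels of 7.56 and 7.82 on the log2 scale against 8.29 and 8.50 in wild-type; whether its probe lies in the deleted part was not examined. On Trp53-/- replicate 2 only the PJ34 RNA gave detectable signal for the Y-linked genes Eif2s3y and Ddx3y, with log2 ratios of 4.21 and 3.12, and only the control RNA did so for Xist, at -3.08. The PJ34 and control RNA of that array thus differed in sex-linked transcripts. Values for the members in Trp53-/- are given with and without that array, as are those of the pathway genes named for their Trp53-/- ratio. In the control channels, Eif2s3y, Ddx3y and Xist were well above background on both wild-type arrays. Both Trp53-/- control channels detected Xist but neither Y-linked gene. Sex-linked transcripts thus differed between the untreated genotypes, and leaving out replicate 2 does not remove this.

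Eicosanoids are signalling lipids derived from arachidonic acid, which phospholipases release from membranes. The 5-lipoxygenase protein, aided by the 5-lipoxygenase-activating protein FLAP (Alox5ap), converts arachidonic acid to leukotriene A4, from which Lta4h makes leukotriene B4 and Ltc4s makes leukotriene C4. The 12- and 15-lipoxygenases (Alox12, Alox15, Alox12b) insert oxygen at other positions, and the cyclooxygenases (Ptgs1, Ptgs2) start the prostaglandin branch. Leukotriene synthesis is best known from myeloid cells such as neutrophils, macrophages and mast cells.

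Each gene was read from a short oligonucleotide, and the sequences that carry the results are shown here because each gene's value rests on 1 such probe. The first 30 of the 60 bases are given 5′ to 3′ in lower case, with the mm9 position in the deposited files.
Alox5 (A_51_P247249, chr6:116360326-116360385, minus strand): tttatgcttcctccaattgcttgcatagag
Alox5ap (A_51_P235687, chr5:150099347-150099406, plus strand): agagacgcatcataacgcaatgccgcgaag
Lta4h (A_55_P2171484, chr10:92947503-92947562, plus strand): ggagagatctgaaagtggattaaggaactg
Ltc4s (A_55_P2015292, chr11:50049974-50050031, minus strand): caaaacgctggggtgcccgcccccgaatcc
Alox12b (A_51_P447258, chr11:68979536-68979770, plus strand): atgtgccaccctctgtataagcttctcatc
The Alox12b probe spans 235 bases of genome for its 60 bases, and the Alox15 probe spans 225, so their bases are not contiguous in the genome. Probes of different member genes shared at most 9 consecutive bases, over 53 pairs, and no other probe on the array had the same sequence as a member probe. Exon and UTR positions in mm9 were not used here. In the RefSeq annotation of GRCm38.p6 the span of Alox5 overlaps the lncRNA Gm38880, that of Alox12 the lncRNA Gm40191 and that of Alox15 the pseudogene Gm12312.

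Since Alox5 differed between wild-type and Trp53-/- cells, its promoter is shown as well, from RefSeq on GRCm38.p6, as the 250 bases before the annotated start, 5′ to 3′ on the minus strand, with the GC box in capitals.
Alox5 promoter (chr6:116461179-116461428): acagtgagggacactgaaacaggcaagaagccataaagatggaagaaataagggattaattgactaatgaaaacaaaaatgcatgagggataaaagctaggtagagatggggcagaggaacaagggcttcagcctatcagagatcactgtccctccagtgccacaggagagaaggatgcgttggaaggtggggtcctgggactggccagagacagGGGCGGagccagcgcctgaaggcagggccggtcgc
The RefSeq promoter table held 7 of the 9 members. In the window of 300 bases around the start, the GC box GGGCGG, searched on both strands, was found 1 time for Alox5 and in 4 of the 7 members, against 35.7% of all 32851 promoters. The p53 consensus decamer was found in 1 member, Alox12, and in 8.36% of all promoters; no match was found in the Alox5 window, which says only that these letters are not in it. A pair of such decamers with a short spacer, the full consensus, was found in none of the 7 members and in 0.0731% of all promoters. Every full consensus also counts as a decamer match, and overlap of the GC box with a decamer was not examined.

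Alox5 was the gene with the highest PJ34 over control ratio in wild-type NSPCs on both arrays, and in Trp53-/- NSPCs its signal was not well above background with or without PJ34. In wild-type replicate 1 the raw Alox5 intensity was 85.2 in the control channel and 1309 in the PJ34 channel, and in replicate 2 it was 58.6 and 938. In Trp53-/- replicate 1 the corresponding intensities were 47.3 and 73.0, and in replicate 2 they were 57.4 and 68.4. The PJ34 channel of both wild-type arrays therefore stood far above the 6 other readings, which lay close together. The 273 negative control spots of an array reached at most 51.7 in the control channel and 67.7 in the PJ34 channel, and each Alox5 reading was brighter than every negative control spot of its own channel.

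**Figure D1:**
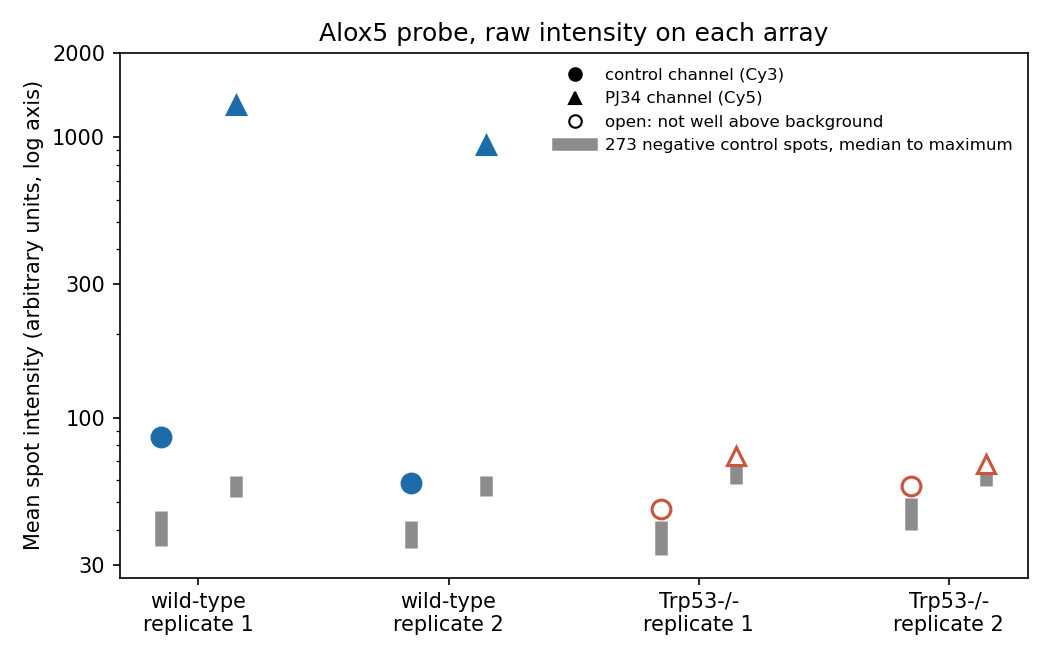
Raw mean spot intensity of the Alox5 probe (log axis, arbitrary units) on each of the 4 arrays, in the control channel (circles) and the PJ34 channel (triangles); open symbols are not well above background and grey bars run from the median to the maximum of the 273 negative control spots. The PJ34 readings of wild-type replicates 1 and 2, at 1309 and 938, lie above all other readings, and all 4 Trp53-/- readings are open.

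After background correction and loess normalization, the log2 ratio of PJ34 over control for Alox5 was 3.06 and 2.52 on the wild-type arrays, a mean of 2.79 ± 0.38 (SD, n = 2) or 6.93-fold. This was the first rank of 19628 genes on each wild-type array, with the next gene by mean, the histone gene H2bc4, at 2.07. The size depends on how the dim control signal was treated and, for raw intensities, on the unequal brightness of the channels. The ratio of raw intensities was 15.4-fold and 16.0-fold, and the scanner software's own log ratio averaged 4.12, or 17.4-fold. Raw intensities are not corrected for the brighter PJ34 channel. The pathway gene Ptges2, with wild-type log2 ratios of -0.02 and -0.05, read 1553 (control) and 2193 (PJ34) on replicate 1. On replicate 2 it read 1634 and 3814. Alox5 was the only member called by the criteria of the study (p below 0.05, q below 0.05 and more than 2-fold) in wild-type cells, where 0.504% of all genes were called in either direction and 0.29% as higher. This call is given as a description, since the gene was chosen for it. In bulk RNA, more RNA per cell and more cells carrying the transcript cannot be told apart.

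In Trp53-/- cells the Alox5 log2 ratios were -0.28 and -0.25, with a mean of -0.26, given as a description. Neither channel was well above background on either array, so this compares 2 signals near background, and no fold or test is given. Without replicate 2 the value was -0.28. The scanner's log ratios gave -1.60, past the criteria, from the same signals near background. The wild-type response exceeded that of Trp53-/- by 3.05 on the log2 scale. In the PJ34 channel alone, the normalised Alox5 level was 10.09 and 9.72 in wild-type and 6.19 and 6.08 in Trp53-/-. It was 13.3-fold higher in wild-type after setting the dim side at the detection floor, the level of the dimmest probe well above background. Undetected probes could lie above that floor, so 13.3-fold is not a strict bound. Both genotypes carried the same dyes.

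The loess normalization set the median gene near 0 on every array. With median centring of the array instead, the median of all kept genes lay at 0.47 in wild-type and 0.64 in Trp53-/- on the log2 scale. Relative to those medians Alox5 stood at 2.82 and -1.01. The faint members Alox5ap and Alox12b also lay below the Trp53-/- median, at -0.695 and -0.595, with loess ratios of -0.173 and -0.142. Neither Trp53-/- channel of Alox5 was well above background, so its -1.01 is not read as a fall with PJ34.

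Markers of the myeloid cells best known for Alox5 were read on the same arrays. Of 15 microglia and macrophage markers, 8 (among them Aif1, Cx3cr1, Trem2, Tyrobp and Ptprc) were not well above background in any of the 8 channels, and 3 (Itgam, Csf1r and Cd68) were above it in all of them. Over the 15 genes the wild-type log2 ratios ran from -0.22 to 0.52. Their summed normalised intensity in wild-type was 7105 to 7923 in the control channel and 7876 to 9062 in the PJ34 channel, and in Trp53-/- it was 4761 to 5393 and 4983 to 5698. Of 7 mast cell markers 6, and of 5 neutrophil markers 4, were not well above background in any channel; the exceptions were Tpsb2 and Elane. Wild-type ratios of the mast cell markers ran from -0.10 to 0.22 and those of the neutrophil markers from -0.17 to 0.23. No marker of these 3 lists thus came near the wild-type ratio of Alox5, and the part of such cells in the Alox5 signal was not tested.

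Among the partners of Alox5 in leukotriene synthesis, none met the criteria in any of the 4 comparisons, those in wild-type and of the difference being counted as a description. Alox5ap, which presents arachidonic acid to the 5-lipoxygenase, was faint: its raw intensity was 59.7 and 86.4 in the wild-type control channels and 61.3 and 56.2 in the Trp53-/- control channels, of which the last was not well above background. Its log2 ratios were -0.01 and -0.10 in wild-type and -0.19 and -0.15 in Trp53-/-. The Trp53-/- mean was -0.17 (95% interval -0.37 to 0.02, limma q = 0.104), and -0.19 without replicate 2. The interval of the mean does not reach a 2-fold change in either direction.

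Lta4h, the hydrolase that forms leukotriene B4, and Ltc4s, the synthase that forms leukotriene C4, were well above background in all 8 channels. For Lta4h the log2 ratios were -0.20 and -0.27 in wild-type and 0.05 and 0.00 in Trp53-/-. The signs differed between genotypes, with a difference of -0.26 that is given as a description. In Trp53-/- the Lta4h mean was 0.03 (95% interval -0.17 to 0.22, limma q = 0.414), and replicate 1 alone gave 0.05. For Ltc4s the ratios were 0.26 and -0.10 in wild-type and -0.34 and 0.12 in Trp53-/-, so that the arrays of each genotype fell on both sides of 0. The Ltc4s mean in Trp53-/- was -0.11 (95% interval -0.39 to 0.17, limma q = 0.286), and -0.34 without replicate 2 (limma, q = 0.166).

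Of the 12- and 15-lipoxygenases, Alox12b, best known from the epidermis, was the only one with a probe that passed the filter. Its log2 ratios were 0.07 and -0.17 in wild-type and -0.22 and -0.06 in Trp53-/-, with a Trp53-/- mean of -0.14 (95% interval -0.36 to 0.08, limma q = 0.172) and -0.22 without replicate 2. A second Alox12b probe was above background in 1 of its 8 channels, the PJ34 channel of wild-type replicate 2, so the 2 probes of this gene did not detect it equally. Both Alox12 probes and the Alox15 probe were not well above background in any channel, with raw intensities of 27.1 to 47.2 in the control channel, where the brightest negative control spot of an array reached 43.1 to 51.7.

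The cyclooxygenases were likewise not detected. Ptgs1, the constitutive form, read 37.5 and 35.8 in the wild-type control channels and 56.5 and 63.1 in the PJ34 channels, and Ptgs2, the inducible form, read 38.9 and 38.2 against 58.0 and 57.8. In Trp53-/- Ptgs1 read 37.5 and 46.8 without PJ34 and 59.0 and 62.5 with it, and Ptgs2 43.8 and 49.1 against 69.2 and 65.4. Neither gene was well above background in any of the 8 channels, although Ptgs2 was printed in 10 spots and each value is a mean of 8 to 10 of them. A level below this limit, with or without PJ34, could not be resolved on these arrays, and no fold is given.

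**Figure D2:**
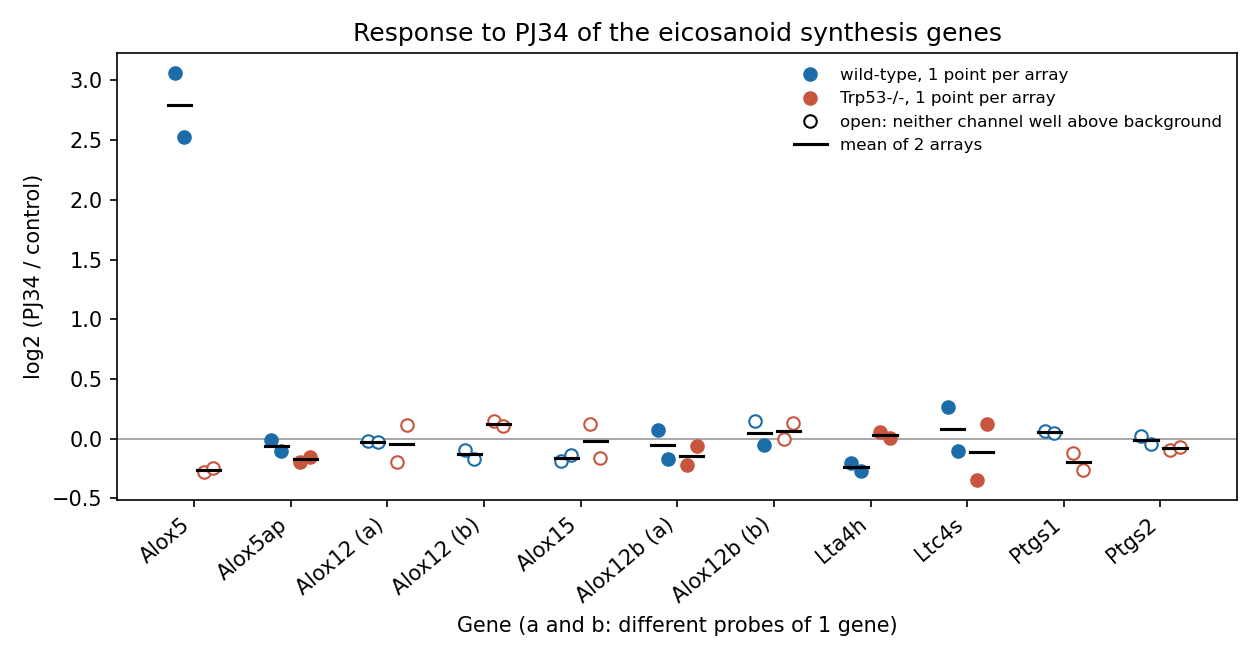
Log2 ratio of PJ34 over control for the 11 probes of the 9 genes, with 1 point per array (blue, wild-type; red, Trp53-/-), a line at the mean of 2 arrays and open points where neither channel was well above background. The wild-type Alox5 points, at 3.06 and 2.52, stand apart, while every other point lies between -0.34 and 0.26.

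Of the members other than Alox5, limma called 0 in Trp53-/- cells, against 0.372% of all genes. Of these members 0 passed an unadjusted p of 0.05, which 31% of all genes did. With the scanner's log ratios 1 member, Alox5, was called, on signals near background, against 2.72% of all genes. The 5 ratios, that of Alox5 included, had a median of -0.14 on the log2 scale, beside a median of 0.03 over all genes.

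The untreated cells of the 2 genotypes were compared in the control channel, which also enters each ratio above. Sex-linked transcripts differed between these channels, so genotype here cannot be told apart from the sex of the cells or from scan period. Alox5 was higher in untreated wild-type cells, with levels of 7.03 and 7.19 on the log2 scale against 6.47 and 6.33 in Trp53-/-. The fitted difference was 0.71, or 0.64 without Trp53-/- replicate 2, and is given as a description, because Alox5 passed the filter only through the wild-type arrays and neither Trp53-/- control channel was well above background. With the dim side set at the detection floor, the wild-type level was 1.59-fold higher, again not a strict bound. With median centring the fitted difference was 0.31.

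Ltc4s showed the largest untreated difference among the members. Its control levels were 10.60 and 9.82 in wild-type and 9.24 and 8.61 in Trp53-/-, and its PJ34 channels read 10.86 and 9.72 against 8.90 and 8.73. The untreated difference was 1.28 (SE 0.33, 95% interval 0.48 to 2.08), or 2.44-fold, and did not meet the criteria (limma, q = 0.0525), which it met without background correction (1.31, limma q = 0.0493). It did not meet them with median centring (1.065, limma q = 0.268). Nor did it with no filter (limma, q = 0.096) or with Benjamini-Hochberg adjustment (limma, adjusted p = 0.0934). Leaving out wild-type replicate 2, the difference was 1.67 and was called (limma, q = 0.000249); without wild-type replicate 1 it was 0.89, without Trp53-/- replicate 1 it was 1.60 and without Trp53-/- replicate 2 it was 0.97, none of them called.

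The other members differed less between untreated genotypes. Lta4h stood at 10.94 and 10.61 in wild-type and 10.71 and 11.04 in Trp53-/-, overlapping, with a difference of -0.10 (95% interval -0.60 to 0.41, limma q = 0.461); without Trp53-/- replicate 2 it was 0.07 and without wild-type replicate 2 also 0.07. Alox5ap differed by 0.24 (95% interval -0.48 to 0.96, limma q = 0.376), by 0.18 without Trp53-/- replicate 2 and by -0.19 without wild-type replicate 2. Alox12b differed by 0.22 (95% interval -0.19 to 0.63, limma q = 0.269), and by 0.13 without Trp53-/- replicate 2. For all 3 the interval includes 0, and none reaches a 2-fold change. Of the 4 members other than Alox5, limma called 0, against 3.87% of all genes. Among these 4, 1 (Ltc4s) passed an unadjusted p of 0.05, against 23.4% of all genes.

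**Figure D3:**
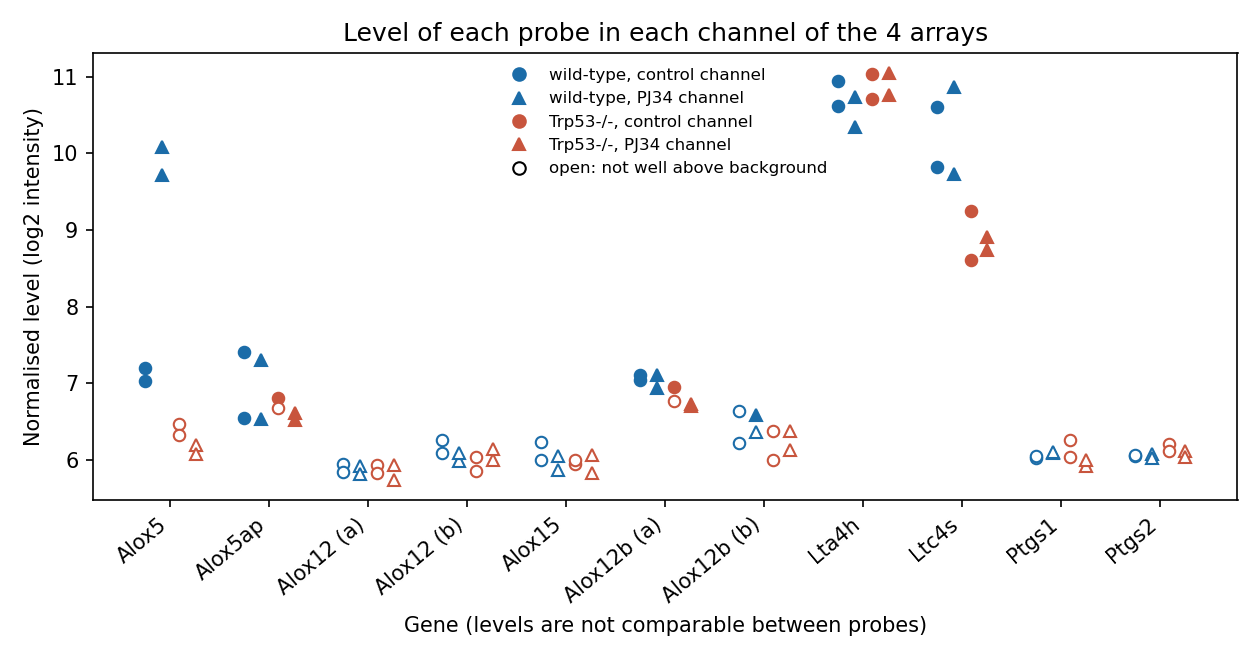
Normalised log2 level of each probe in the control channel (circles) and the PJ34 channel (triangles) of the 4 arrays; open symbols are not well above background, and levels of different probes are not comparable. Ltc4s control levels, at 10.60 and 9.82 in wild-type, lie above the 9.24 and 8.61 of Trp53-/-, while Alox12, Alox15, Ptgs1 and Ptgs2 are open throughout.

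Other genes of arachidonic acid release, eicosanoid synthesis, breakdown, transport and reception were read from a list of 71, of which 69 were on the array and 34 passed the filter. Limma called none of the 34 in wild-type cells or in Trp53-/- cells, nor for the difference between genotypes, where 0.484% of all genes were called. In these comparisons 16, 15 and 8 of the 34 passed an unadjusted p of 0.05. These are larger shares than the 32.1%, 31% and 14.6% of all genes that did. The scanner's log ratios gave 4 calls in wild-type and 3 in Trp53-/-, where they called 2.86% and 2.72% of all genes. At q below 0.05 and any size of change, 7 were higher and 9 lower with PJ34 in wild-type, where 25.4% of all genes passed in either direction. In Trp53-/- 5 were higher and 7 lower, where 23.6% of all genes passed. In both genotypes the share of the 34 was again larger than that of all genes, and the list was not tested as a set. The median of the list was -0.02 in wild-type and -0.03 in Trp53-/-, beside 0.03 over all genes in each.

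The leukotriene B4 receptor gene Ltb4r1 had the highest wild-type ratio of the list. Its log2 ratios were 1.09 and 0.88 in wild-type, a mean of 0.98 (SE 0.10, limma q = 0.000152), just under 2-fold, and 0.13 and 0.29 in Trp53-/-. The gene was faint: its control channel was well above background on wild-type replicate 1 only. With the Trp53-/- control side set at the detection floor, at a mean of 6.44, the ratio was 1.06-fold. This is not a bound, since undetected probes could lie above that floor, as Alox5ap did at 6.67 on Trp53-/- replicate 2. The fitted ratios differed between genotypes by 0.78, and Ltb4r1 was the 1 gene of the list past q below 0.05 there, as 1.8% of all genes were. On wild-type replicate 2 the control signal was not well above background either, so the true ratio may be larger in both genotypes. The true difference may therefore be smaller or larger than the fitted one. Without wild-type replicate 2 Ltb4r1 was called in wild-type. Relative to the median gene under median centring it stood at 0.80 in wild-type and -0.44 in Trp53-/-. The faint genes Ltb4r2 and Ptger3 stood at -0.45 and -0.04 in Trp53-/-, and the -0.44 is not read as a fall with PJ34.

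Of the genes that release or activate arachidonic acid, the secreted phospholipase gene Pla2g3 was lower with PJ34 in both genotypes, at -0.62 and -0.79 in wild-type and -0.83 and -0.72 in Trp53-/- (means -0.71 and -0.78, limma q = 0.000457 and 0.000459). Acsl4, which couples arachidonic acid to coenzyme A, was at -0.63 in wild-type (SE 0.13, limma q = 0.00452), while its Trp53-/- arrays read -0.31 and 0.25. The difference between genotypes for Acsl4, -0.60 (-0.33 without Trp53-/- replicate 2), did not pass (limma, q = 0.117).

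Among the other named genes of the list, the reductase gene Ptgr2 was higher with PJ34 in wild-type, at 0.56 (SE 0.10, limma q = 0.00207). Ephx1, an epoxide hydrolase gene, was at 0.49 (limma, q = 0.00392) and the aldose reductase gene Akr1b3 at -0.55 (limma, q = 0.00131). In Trp53-/- the glutathione transferase gene Mgst3 was at -0.61 (limma, q = 0.0014) and the prostaglandin F synthase gene Prxl2b at -0.48 (limma, q = 0.00939). The transporter gene Abcc4 was at 0.55 (limma, q = 0.00195), the carbonyl reductase gene Cbr1 at 0.32 (limma, q = 0.0169) and the prostaglandin E receptor gene Ptger3 at 0.64 (limma, q = 0.00322). No array detected Ptger3 in the control channel. With that side set at the detection floor its Trp53-/- ratio was 1.20-fold, which is not a bound either. Relative to the median gene under median centring it stood at -0.04. Without Trp53-/- replicate 2 the ratios were -0.52 for Mgst3, -0.69 for Prxl2b, 0.51 for Abcc4 and -0.83 for Pla2g3, still past q below 0.05, whereas Cbr1 at 0.29 (limma, q = 0.191) and Ptger3 at 0.38 (limma, q = 0.0927) were not. None of these 8 genes passed a test of the difference between genotypes; besides Acsl4 and Ltb4r1, the 3 largest differences in each direction were those of Mgll (0.46), Ptgr1 (0.42), Abcc4 (-0.37) and Ggt5 (-0.34), with limma q from 0.102 to 0.307.

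**Figure D4:**
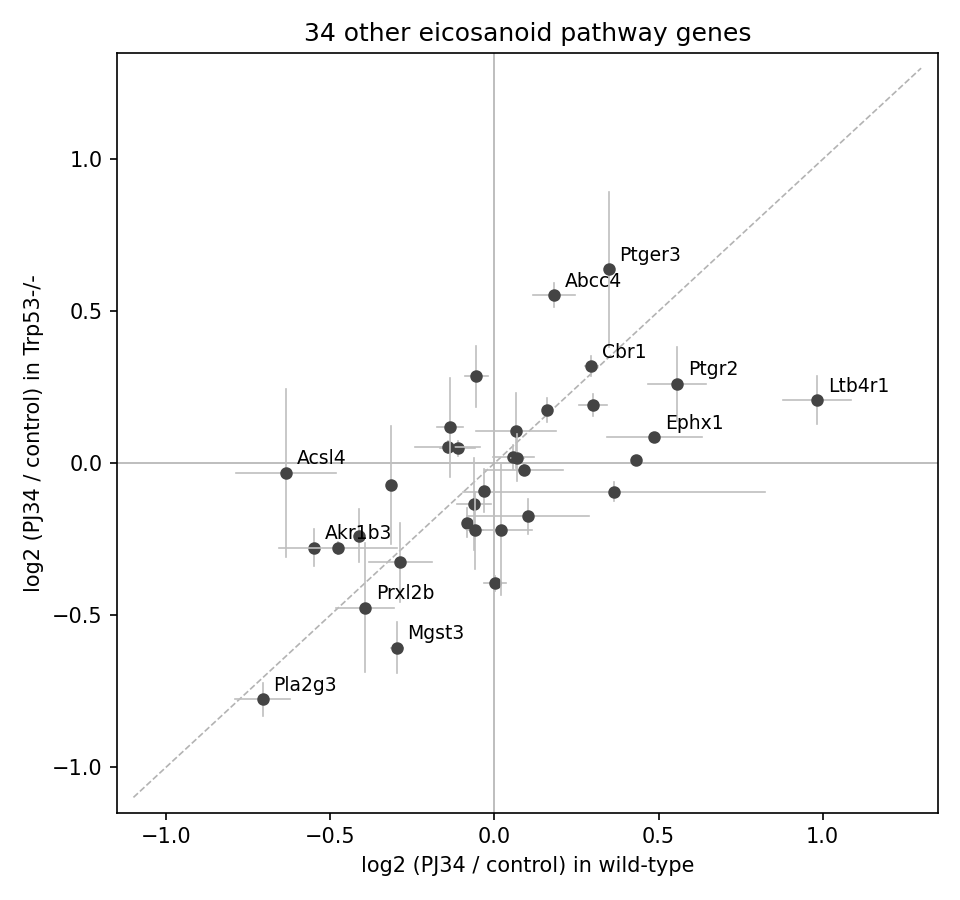
Mean log2 ratio of PJ34 over control in wild-type (x axis) and Trp53-/- (y axis) for the 34 other eicosanoid pathway genes; grey bars span the 2 arrays of each genotype and the dashed line marks equal ratios. Ltb4r1 lies furthest to the right, at 0.98 in wild-type and 0.21 in Trp53-/-, and Pla2g3 at the lower left, at -0.71 and -0.78.

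In untreated cells 3 of the 34 genes were called, 1 higher and 2 lower in wild-type than in Trp53-/-, which is 8.82% beside 3.87% of all genes. Ephx1 was higher, with control levels of 14.06 and 13.99 in wild-type against 12.76 and 12.91, a difference of 1.20 (limma, q = 0.0187). The monoacylglycerol lipase gene Mgll was lower, at 7.76 and 9.05 against 11.24 and 11.20, a difference of -2.82 (limma, q = 0.0194), with a wide gap between the wild-type arrays. Cotl1, whose product binds 5-lipoxygenase, was lower at 12.94 and 13.48 against 14.10 and 14.42, a difference of -1.05 (limma, q = 0.0425). Gpr17 (-1.42), Plaat3 (1.04) and Pla2g4b (0.93) did not pass (limma, q = 0.0678, 0.0544 and 0.0658). Without Trp53-/- replicate 2 the differences were 1.27 for Ephx1, -2.84 for Mgll and -0.89 for Cotl1. They were -1.44 for Gpr17, 0.83 for Plaat3 and 0.57 for Pla2g4b. Which of these genes were called depended on the array left out, with 1 array then alone in its genotype. Markers of other cell types also differed in level between the untreated genotypes. The summed normalised intensity of 5 oligodendrocyte markers was 1948 to 3214 in wild-type and 8988 to 9693 in Trp53-/-. That of 5 endothelial markers was 7994 to 8931 and 3326 to 3697, but only 1 of the 5, Kdr, was well above background in these control channels. Gpr17 is itself known from the oligodendrocyte lineage. The part of such cells in the untreated differences, those of Alox5 and Ltc4s included, was not tested.

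The genes whose ratios on the 4 arrays lay closest to those of Alox5 were sought among 13061 genes with a symbol, by the Euclidean distance of the 4 log2 ratios. The nearest was Perp, at a distance of 1.23, with 2.17 and 1.73 in wild-type and -0.16 and -0.52 in Trp53-/-. Svop followed at 1.59, Rln1 at 1.63, 1700007K13Rik at 1.66 and Gdf15 at 1.67. These 5 genes read 1.16 to 2.17 on the wild-type arrays and -0.52 to 0.01 on the Trp53-/- arrays, and none of them reached either Alox5 value in wild-type. In each channel Perp, Svop and Rln1 were well above background on all 4 arrays, but 1700007K13Rik and Gdf15 on only 2, so part of their ratios compare signals near background. The likeness rests on 4 arrays that share the treatment and the dyes.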

How the data were processed

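Two-colour Agilent SurePrint G3 Mouse GE arrays were scanned and read by the authors with Agilent Feature Extraction 10.7.3.1, and the deposited files hold raw spot intensity per channel and log10 ratios of Cy5 over Cy3. A normalized table of the whole series was not used, since its 4 columns name no sample.

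Here mean spot intensity and median local background were corrected with normexp (offset 50) and normalised by loess within arrays. Channel levels were then quantile normalised (Aquantile) between arrays. Control spots and outlier spots (228 to 276 per array) were left out, and no spot was saturated. Spots of a probe were averaged, and probes were kept with 1 channel well above background on both arrays of a genotype (26953 of 55681, 48.4%). A gene was read from its brightest kept probe; 48.9% of probes matched a RefSeq symbol, and the others kept the name in the files. limma 3.58.1 in R 4.3.3 fitted a mean per genotype over 4 arrays. A call needed p and Storey q below 0.05 and more than 2-fold, as in the study's methods. Every limma test is two-sided, and with 2 arrays a genotype it leaves 2 residual degrees of freedom (10.23 after moderation; 6.084 for untreated levels). The number of arrays limits the precision. The fit was tested on simulated data.

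The members, lists and tests were chosen with earlier results of these data known. Named pathway genes were those called, and the 3 with the largest increase and decrease in each comparison; the 5 genes nearest to Alox5 were also named. Motifs were searched in RefSeq promoters of 300 bases. Alternatives were the background correction, the centring, the scanner's log ratios, the filter, the choice of probe, Benjamini-Hochberg adjustment, a replicate block and leaving out each array. The replicate numbers do not pair the samples: deviations of same-numbered arrays correlated at -0.18 over 2 pairs.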

Additional observations from a re-analysis of the deposited data

Results flagged for a closer look

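For 2 members every wild-type array moved one way and every Trp53-/- array the other, and the difference was not tested, since the members were chosen with the wild-type response known. The Alox5 response was 3.05 higher in wild-type on the log2 scale, where the Trp53-/- ratio compares signals that were not well above background. The Lta4h response was -0.26, with wild-type at -0.20 and -0.27 and Trp53-/- at 0.053 and 0.0038, the last hardly apart from 0.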

How the results depend on the processing

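Of the values recomputed under the planned and added alternatives 7 changed sign, none of them called on either side. In Trp53-/- the Alox12b ratio was 0.043 with median centring and 0.25 with the scanner's log ratios, and the Ltc4s ratio 0.59 with median centring (-0.05 relative to the median gene), and leaving out 1 array at a time it ran from -0.34 to 0.12. In untreated cells the Lta4h difference then ran from -0.26 to 0.072 and was positive without wild-type replicate 2 or Trp53-/- replicate 2, and that of Alox5ap ran from -0.19, without wild-type replicate 2, to 0.67. The Alox5 response in wild-type was 3.29 with median centring and 4.12 with the scanner's log ratios, and its excess over Trp53-/- was 3.66 and 5.71; the scanner's log ratios gave -1.60 in Trp53-/-, so that 1 member was called there and 0 in the difference, where they called 0 of all genes. The stricter filter on dim probes removed Alox5, so that 0 members were called in wild-type and in the difference. Of the pathway genes, no background correction gave 1 call in wild-type and 1 in Trp53-/-. Median centring gave 3, 3, 1 in the difference and 0 in untreated cells. The median of all kept genes then lay at 0.47 in wild-type and 0.64 in Trp53-/-. Relative to it the highest pathway genes were Ltb4r1 at 0.80 and Abcc4 at 0.61, and the lowest was Pla2g3 at -0.955 and -1.28. The share of all genes called is not given here for either setting. The scanner's log ratios gave 4 in wild-type and 3 in Trp53-/-, where they called 2.86% and 2.72% of all genes. In untreated cells 1 member, Ltc4s, was called without background correction (1.31). With the replicate block its difference was 1.28 and called, as 1 member and 5 pathway genes were in all; the block gave 99, 76, 106 and 999 calls over all genes in the 4 comparisons, against 99, 73, 95 and 760 without it. The crossed pairing, added after seeing the data, gave 1 member and 5 pathway genes in untreated cells, and 99, 76, 105 and 963 calls over all genes. Leaving out 1 array at a time, members called in untreated cells ran from 0 to 1 and pathway genes from 0 to 6, and pathway genes in wild-type from 0 to 1; the lone array left in a genotype is then assumed to vary like the others. The scanner's log ratios hold no channel levels, and the stricter filter gave no Alox5 value. Signals near background set the limit for Alox5 in Trp53-/-, Alox5ap, Alox12b and the undetected genes; causes were not tested.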
